A study of Mus musculus with 9 samples.

Results

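Genes of glycolysis, glycogen storage and lactate handling were followed in whole mouse hearts with chronic heart failure. They were chosen by name, as 33 genes for sugar uptake, the glycolytic enzymes, lactate and pyruvate exchange and glycogen turnover. The annotation of the array gave 29 of them a probe set of their own, out of 30142 genes with 1 symbol. Gpi1, Eno1 and Pfkfb1 are not named in that annotation, and Pfkfb2 shares its probe set with the pseudogene C4bp-ps1, so these 4 were not measured as single genes. Every value is a deposited log2 expression value, where a difference of 1 is a doubling.

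The hearts came from immunodeficient nude mice whose left anterior descending coronary artery had been tied permanently. Treatment followed 3 weeks later in mice with an ejection fraction below 50%, and the hearts were taken 6 weeks after treatment. Vesicle hearts (3 arrays) had received the extracellular vesicles that 500000 cardiovascular progenitor cells secrete in 48 hours, and cell hearts (3 arrays) had received 500000 of the cells themselves. Medium hearts (2 arrays) had received the culture medium alpha-MEM. The sham heart (1 array) had a needle put into the muscle 3 times with nothing injected, and its label also states chronic heart failure, so no array represents a heart labelled as healthy. Titles place vesicle array 1, cell array 1, medium array 1 and the sham array in an experiment numbered 9, and vesicle arrays 2 and 3, cell arrays 2 and 3 and medium array 2 in an experiment numbered 1. The labels do not say whether every array comes from an animal of its own, so p-values measure only the spread between these arrays. Vesicle array 3 and cell array 3 also share a title number, VTS2, that no medium array carries and whose meaning the labels do not state.

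Glycolysis splits glucose into pyruvate in the cytosol. The adult heart draws most of its energy from fatty acids and oxidises much of the pyruvate and lactate it takes up, and failing hearts have often been described as leaning more on glucose. Several steps are served by a form typical of heart or skeletal muscle and by another form found in most tissues, encoded by separate genes. Slc2a4 (GLUT4) is the insulin-responsive glucose transporter of muscle and Slc2a1 (GLUT1) the general one, and the same division holds for Hk2 and Hk1 (hexokinases), Pfkm with Pfkl and Pfkp (phosphofructokinases), and Pgam2 and Pgam1 (phosphoglycerate mutases). Ldhb encodes the lactate dehydrogenase subunit that prevails in heart, and Ldha the one of skeletal muscle and many dividing cells.

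All 9 arrays carried a heart profile: the 6 measured heart muscle markers, Myh6 and Tnnt2 among them, were brighter on each array than 95% of the negative control probes, and none of 7 skeletal muscle markers did on any array. That limit was 7.18 to 7.28 and is used below as the background. Array medians ran from 5.56 to 5.63. Of the 29 genes, 25 were above background on all 9 arrays, whereas Aldoc, Pfkfb3, Slc16a3 and Fbp2 were above it on none. For these 4 genes levels are given without fold changes. Vesicle array 3 stood apart by its lung transcripts, with a mean of 8.55 over 4 lung markers against 4.98 to 5.72 on the other arrays; Sftpc, a surfactant protein gene, was at 9.75 there.

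Promoters of 3 genes are shown: Pgam1, which differed most between the experiments among the genes above background, its muscle partner Pgam2, whose values overlapped, and the muscle enolase gene Eno3, which had the lowest unadjusted p after vesicles among those genes. Each is the 250 bases before the start used in the RefSeq promoter windows (GRCm38.p6, 5′ to 3′ on the strand of the gene). Capitals mark ACGTG on either strand, the core of the hypoxia response element, and CAGCTG, an E-box bound by muscle factors. The windows are chr19:41911621-41911870 on the plus strand for Pgam1, chr11:5803797-5804046 on the minus strand for Pgam2 and chr11:70656926-70657175 on the plus strand for Eno3. The Eno3 window lies inside the span annotated for that gene, chr11:70653125-70662513, so its start is not the first of the gene.
Pgam1: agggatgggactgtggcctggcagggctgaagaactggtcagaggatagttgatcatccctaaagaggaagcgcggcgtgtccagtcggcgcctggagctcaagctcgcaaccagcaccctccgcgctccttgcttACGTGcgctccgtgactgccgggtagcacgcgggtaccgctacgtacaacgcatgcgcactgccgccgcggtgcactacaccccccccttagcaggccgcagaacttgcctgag
Pgam2: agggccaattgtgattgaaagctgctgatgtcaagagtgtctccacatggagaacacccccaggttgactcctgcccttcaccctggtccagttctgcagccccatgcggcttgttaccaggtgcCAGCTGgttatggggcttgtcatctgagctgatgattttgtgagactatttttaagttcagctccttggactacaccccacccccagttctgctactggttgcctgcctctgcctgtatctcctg
Eno3: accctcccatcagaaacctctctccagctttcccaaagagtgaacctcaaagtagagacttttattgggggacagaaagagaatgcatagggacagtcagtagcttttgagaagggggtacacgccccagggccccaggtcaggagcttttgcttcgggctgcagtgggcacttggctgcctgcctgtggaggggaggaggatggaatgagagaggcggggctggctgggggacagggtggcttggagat

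Pgam1 holds 1 ACGTG and no CAGCTG, Pgam2 holds 1 CAGCTG and no ACGTG, and the Eno3 window holds neither. RefSeq windows were found for 28 of the 29 genes, all but Slc2a4. ACGTG occurs on either strand in 18 of their 41 windows (43.9%), or 15 of 28 genes, against 16.6% of all 32851 windows of that length. CACGTG, an E-box that contains ACGTG, occurs in 14.6% of the windows of these genes against 6.02% of all, and CAGCTG in 17.1% against 13.0%. A match of letters is a description and does not show that a factor binds.

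**Figure D1:**
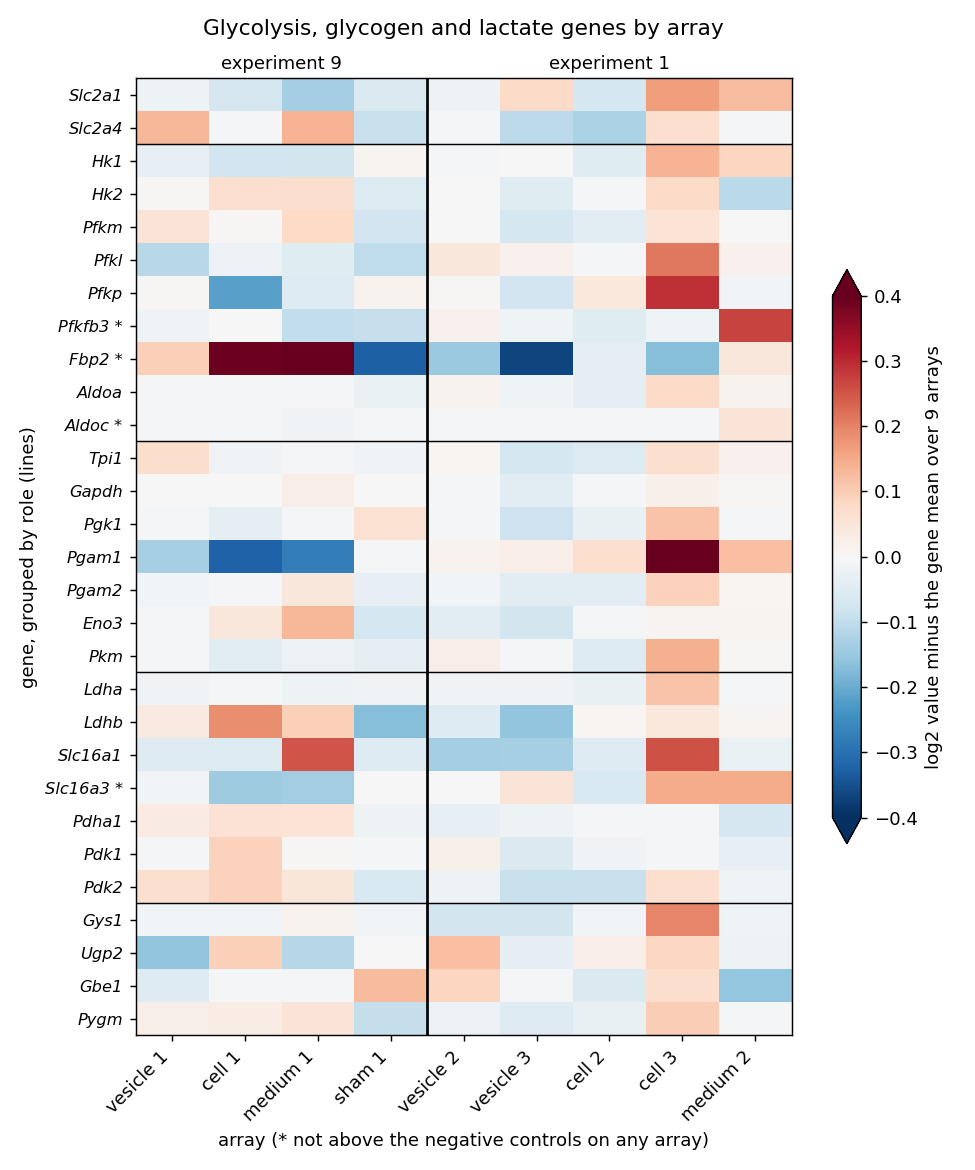
Log2 value of each of the 29 genes (rows, grouped by role) on each array (columns, experiment 9 left and experiment 1 right), minus the mean of the gene over 9 arrays. Cell array 3 is red in most rows, and Pgam1 is blue on the 3 injected arrays of experiment 9.

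Vesicles were compared with medium to ask how the hearts differed 6 weeks after treatment. No gene of sugar metabolism passed the test. Fitted log2 differences of the 25 genes above background ran from −0.21 to 0.089 (0.863-fold to 1.06-fold), with a median standard error of 0.053. Limma, fitted over all genes with the experiment as a block, called 0 of the 29 at an adjusted p under 0.05 (0% of 30142 genes were called). Least squares without moderation also called 0 of them, and 4 of the 30142 genes. Eno3 and Fbp2 had an unadjusted p under 0.05, both lower, where 4.53% of all genes were lower and 1.91% higher at that threshold. Of the 29 genes 22 were lower and 7 higher after vesicles, with a median of −0.019, beside 60.3% lower, 38.6% higher and a median of −0.012 over all genes. Only 6667 of the 30142 genes had a mean above background, unlike most of the list. Medium array 2 held the highest value of any array in 24.5% of all genes, but in 4.53% of those 6667. It held the lowest in 10.7% and 23.4%. Shares of all genes therefore need not hold for bright genes. Here and below, counts for treatments, experiments and sham were not set beside bright genes alone.

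Eno3 encodes beta-enolase, the muscle form of the enzyme that makes phosphoenolpyruvate. It was 11.44, 11.40 and 11.37 in vesicle hearts against 11.58 and 11.46 in medium hearts. All 3 vesicle arrays lay below both medium arrays, as in 7.17% of all genes. The fitted difference was −0.10 ± 0.025 (SE), −0.14 in experiment 9 and −0.069 in experiment 1, with a limma adjusted p of 0.675. It ran from −0.14 without medium array 2 to −0.052 with the sham heart among the controls. The sham heart, at 11.37, lay as low as the lowest vesicle heart.

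Ldhb was 11.40, 11.31 and 11.20 in vesicle hearts against 11.45 and 11.37 in medium hearts. Two-sided limma gave −0.087 ± 0.039 (adjusted p = 0.675), with a lower value in each vesicle heart of experiment 1 and in the vesicle heart of experiment 9 than in the medium heart of its experiment. With the sham heart among the controls the difference was −0.0071. The lowest vesicle value came from array 3, the one with lung transcripts, and their part in the result was not tested. Ldha, its partner, was 9.35 in each vesicle heart against 9.34 and 9.36 in medium hearts.

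Slc16a1 encodes MCT1, the carrier that moves lactate across the heart cell membrane. It was 9.63, 9.55 and 9.55 in vesicle hearts against 9.93 and 9.66 in medium hearts. Each vesicle heart lay below both medium hearts, as in 7.17% of all genes. The difference of −0.21 ± 0.13 had a limma adjusted p of 0.69 and rested mainly on medium array 1, being −0.30 in experiment 9 and −0.11 in experiment 1, −0.069 without medium array 1 and −0.38 without medium array 2. Slc16a3, the lactate exporter MCT4, was not above background on any array.

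The remaining enzymes from glucose to pyruvate lay close to medium. Gapdh, often used as a loading control, was 12.47, 12.46 and 12.42 in vesicle hearts against 12.49 and 12.47 in medium hearts. The difference was −0.031 ± 0.020, and Gapdh spanned 0.071 over all 9 arrays. Pgam2, at −0.047 ± 0.045, and Pgk1, the phosphoglycerate kinase, at −0.030 ± 0.055, also had no overlap between vesicle and medium hearts, and neither passed limma (adjusted p = 0.794 and 0.919). The Pgk1 probe set used here has an identifier of another chromosome than X, where the gene lies, and the second Pgk1 probe set overlapped between vesicle hearts (10.25, 10.25 and 10.18) and medium hearts (10.25 and 10.26). All vesicle arrays lay below all medium arrays in 7.17% of all genes and above them in 3.72%. Fitted differences of Slc2a1, Hk1, Hk2, Pfkm, Pfkl, Pfkp, Aldoa (aldolase), Tpi1 (triose phosphate isomerase) and Pkm (pyruvate kinase) were between −0.036 and 0.016, that of Slc2a4 was −0.040 ± 0.075 and that of Pgam1 −0.018 ± 0.17.

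Glycogen genes were mixed after vesicles. Gbe1, the branching enzyme, was 8.04, 8.18 and 8.09 in vesicle hearts against 8.09 and 7.94 in medium hearts, a difference of 0.089 ± 0.070 whose sign differed between the experiments (−0.046 in experiment 9 and 0.19 in experiment 1). Ugp2, which makes the activated glucose for glycogen, stood at 0.029 ± 0.075. Gys1, the muscle glycogen synthase, stood at −0.052 ± 0.073 and Pygm, the muscle phosphorylase that releases glucose units, at −0.033 ± 0.044. Pdha1, a subunit of the pyruvate dehydrogenase complex, and the kinases that switch the complex off, Pdk1 and Pdk2, lay between −0.015 and 0.013.

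Fbp2, the muscle fructose bisphosphatase that runs against phosphofructokinase, was 6.76, 6.52 and 6.30 in vesicle hearts against 7.18 and 6.71 in medium hearts. None of these values exceeded the background, so they order the arrays but give no fold. Pfkfb3, an activator of phosphofructokinase, was 5.98, 6.01 and 5.98 in vesicle hearts against 5.90 and 6.27 in medium hearts, also below background. Without medium array 1, limma called Pfkfb3 in both treatments (adjusted p = 0.0428 after vesicles and 0.0415 after cells), in fits that take the spread of the single medium array left, the highest of the 9 for this gene, from the other groups. Those fits called 2.73% of all genes after vesicles and 2.99% after cells, and 1 of the 29 in each, a share near that of all genes. Adjusted p for Pfkfb3 over the settings tried ran from 0.0428 to 0.924 after vesicles and from 0.0415 to 0.922 after cells.

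**Figure D2:**
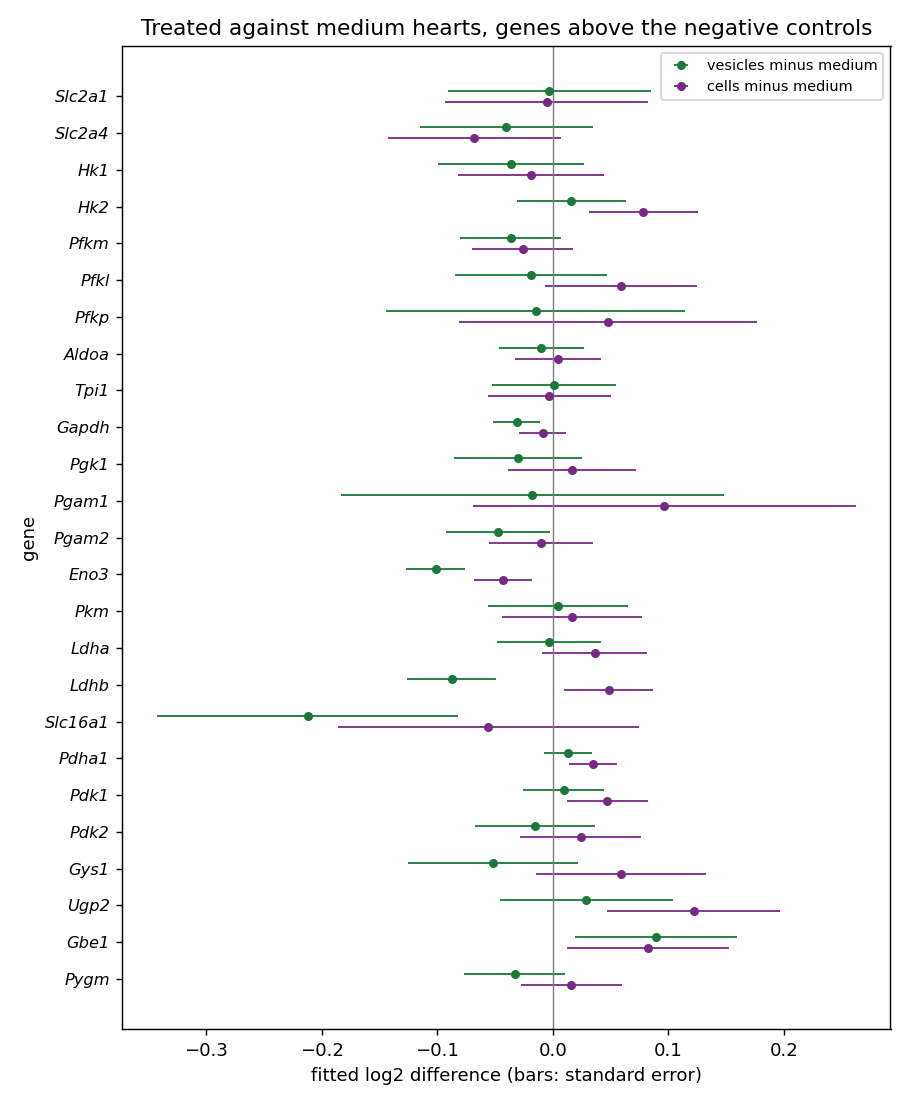
Fitted log2 difference from medium (points) with its standard error (bars) for the 25 genes above background, vesicles in green and cells in purple. All points lie between −0.21 and 0.12, and Eno3 and Ldhb after vesicles lie below 0 by more than 2 times their standard error.

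The injected cells were set against medium next. No gene of the list passed, and differences of the 25 genes above background were between −0.068 and 0.12 (0.954-fold to 1.09-fold). Limma called 0 of the 29 (0% of all genes called), and none had an unadjusted p under 0.05 (1.68% of all genes were higher and 5.05% lower at that threshold). Least squares without moderation called 0 of the 29 and 0 of all genes. Of the 29 genes 16 were higher and 13 lower after cells, with a median of 0.016, beside 43.2% higher, 55.7% lower and a median of −0.0064 over all genes. Without cell array 3 the median was −0.029. The comparisons with medium share the medium arrays, so the values of both treatments are not independent.

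All 4 glycogen genes had a fitted value above 0 after cells, none of them past the test. Ugp2 was 9.36, 9.29 and 9.35 in cell hearts against 9.15 and 9.25 in medium hearts. Every cell heart lay above both medium hearts, which holds for 3.2% of all genes (5.57% lay wholly below), and the difference was 0.12 ± 0.075 (limma adjusted p = 0.698), or 0.21 in experiment 9 and 0.075 in experiment 1. Without cell array 1 it was 0.045. Gbe1 stood at 0.082 ± 0.070, Gys1 at 0.059 ± 0.073 and Pygm at 0.016 ± 0.044. The Gys1 value came from cell array 3: the cell hearts were at 8.88, 8.88 and 9.09 against 8.90 and 8.87 in medium hearts.

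Among the uptake and hexose steps, Hk2, the insulin-responsive hexokinase, was 9.80, 9.72 and 9.81 in cell hearts against 9.80 and 9.62 in medium hearts (0.079 ± 0.047), or −0.0016 in experiment 9 and 0.15 in experiment 1. Slc2a4 was 9.42, 9.29 and 9.49 in cell hearts against 9.56 and 9.41 in medium hearts (−0.068 ± 0.075). Neither difference passed limma (adjusted p = 0.695 and 0.844).

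Lactate and pyruvate genes showed 5 of 7 fitted values above 0 after cells. Ldhb was 11.54, 11.37 and 11.40 in cell hearts against 11.45 and 11.37 in medium hearts (0.048 ± 0.039). Pdk1 stood at 0.047 ± 0.035 and Pdha1 at 0.035 ± 0.021. Slc16a1 was 9.63, 9.63 and 9.94 in cell hearts against 9.93 and 9.66 in medium hearts (−0.056 ± 0.13), with 1 high array in each group.

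Set directly against cells, vesicle hearts had 22 of 29 genes lower and 6 higher, Aldoc being equal, with a median of −0.038 beside 50.6% lower, 46% higher and a median of −0.00070 over all genes. Limma called 0 of the 29 (0% of all genes). Least squares without moderation called 0 of the 29 and 0 of all genes. Ldhb, Fbp2 and Eno3 had an unadjusted p under 0.05, all lower, beside 2.59% of all genes lower and 1.75% higher. Ldhb was 11.40, 11.31 and 11.20 in vesicle hearts against 11.54, 11.37 and 11.40 in cell hearts, and each vesicle heart lay below every cell heart of its own experiment. Over both experiments the groups overlapped, as they did in all 29 genes, while 2.56% of all genes had every vesicle array below every cell array and 1.85% above. That difference was −0.14 ± 0.034 (limma adjusted p = 0.92), or −0.15 in experiment 9 and −0.13 in experiment 1. Eno3 stood at −0.058 ± 0.022 (adjusted p = 0.92). Without cell array 3 the median over the list was 0.0026.

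Cell array 3 stood apart for these genes. It held the single highest value of the 9 arrays in 14 of the 29, or 48.3%, where it did so for 14.9% of all genes and 26.1% of the 6667 genes whose mean exceeded the background. Against cell array 2 of the same experiment, 24 of the 25 genes above background were higher on array 3, with a median gap of 0.14, beside 57.9% higher and a median of 0.019 among those 6667 genes. Pgam1 was at 9.79 on array 3 against at most 9.40 elsewhere, Pfkp, the platelet-type phosphofructokinase, at 8.22 against at most 7.97, and Pfkl, the liver-type one, at 8.77 against at most 8.61. Gys1 was at 9.09 against at most 8.90, Ldha at 9.48 against at most 9.36 and Pkm at 10.23 against at most 10.11. Both muscle forms and general forms were among the 14 genes, Pgam2, Pygm and Hk2 with gaps of 0.047, 0.048 and 0.0075. Heart muscle markers averaged 11.63 on this array, inside the range of 11.60 to 11.66 of its experiment, and the lung marker mean was 5.04. Fibroblast and endothelial markers averaged 9.88 and 9.27, inside the ranges of 9.65 to 9.88 and 9.11 to 9.30. Col1a1 (9.43), Col3a1 (9.50) and Pecam1 (8.67) were the highest of the 9 arrays here and Pln (12.40) the lowest. Dcn, at 10.71, was the lowest of its experiment, and the heart muscle marker Ryr2, at 11.41, was the highest of its experiment. The endothelial markers Cdh5 (10.33), Kdr (9.89) and Tie1 (8.19) lay within the range of the other arrays of that experiment. So did the heart muscle markers Myh6, Myl2, Tnnt2 and Tnni3. The part of these markers was not tested. Vesicle array 3 held the lowest value in 8 of the 29 genes, where it did so for 9.01% of all genes and 15.5% of those 6667 genes.

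**Figure D3:**
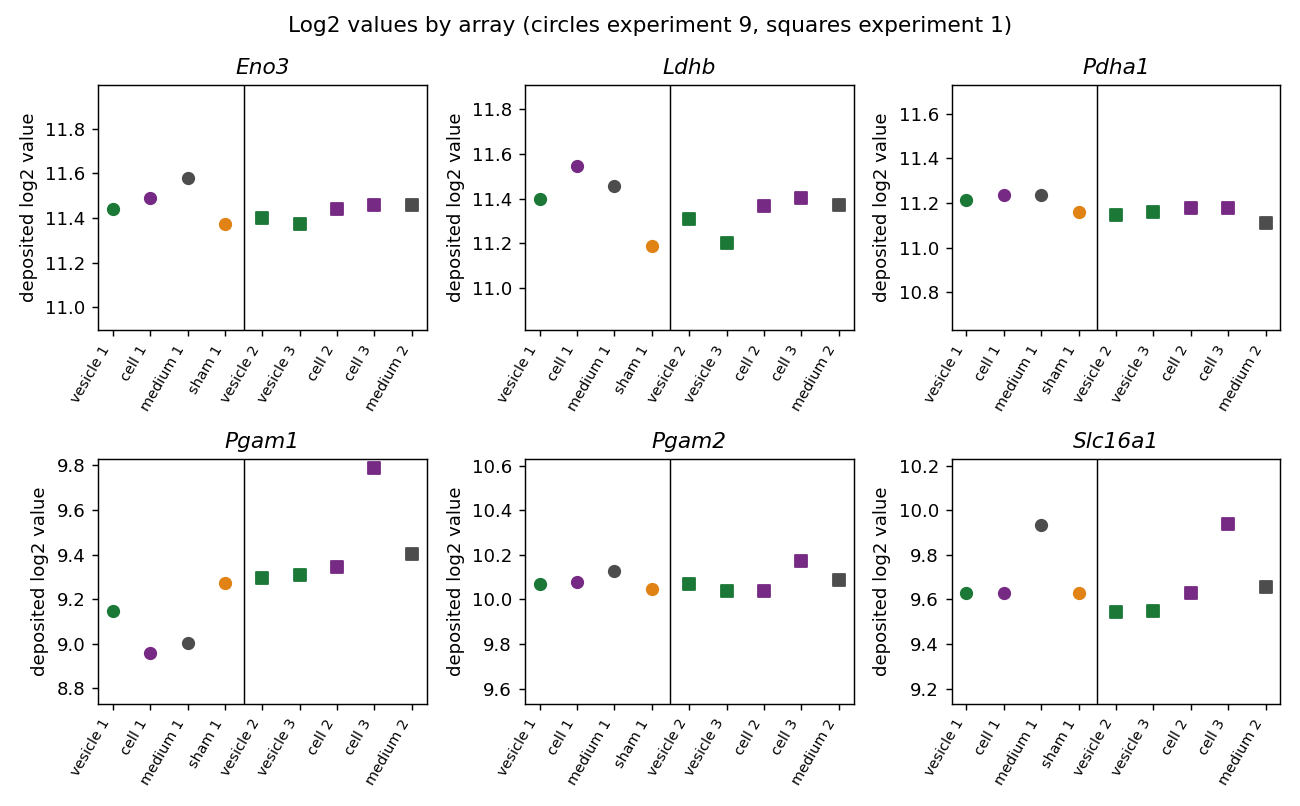
Deposited log2 values of 6 genes on the 9 arrays, each panel spanning the same height, with vesicle hearts green, cell hearts purple, medium hearts grey and the sham heart orange. Pgam1 is lower on the 3 injected arrays of experiment 9 and highest on cell array 3, and Slc16a1 has 2 high arrays, cell array 3 and medium array 1.

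The comparison of experiments 9 and 1, over the 8 injected hearts with the treatment held fixed, gave a wider gap than either treatment, for Pgam1. Limma still called 0 of the 29 (0% of all genes), and least squares without moderation called 0 of them and 2 of all 30142 genes. By limma, 5 had an unadjusted p under 0.05: Fbp2, Pdha1, Ldhb and Eno3 higher in experiment 9 (beside 6.2% of all genes) and Pgam1 lower (beside 6.56%). The list had 15 genes higher and 14 lower, with a median of 0.0032, beside 40.7% higher, 58.2% lower and a median of −0.010 over all genes.

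Pgam1 was 9.15, 8.96 and 9.01 in the vesicle, cell and medium hearts of experiment 9. In experiment 1 it was 9.30 and 9.31 in vesicle hearts, 9.35 and 9.79 in cell hearts and 9.40 in the medium heart, all above experiment 9. The fitted difference was −0.39 ± 0.13, or 0.765-fold, with a limma adjusted p of 0.375. The sham heart of experiment 9 was at 9.27, between the injected hearts of the 2 experiments. Pgam1 has processed copies elsewhere in the genome, and its signal cannot be told from theirs with certainty: 2 probe sets that carry Pgam1 beside the copies Gm8910 and Pgam1-ps2 together ran from 8.69 to 9.01 in the injected hearts of experiment 9 against 9.30 to 10.02 in experiment 1.

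Pgam2, the muscle form of the same enzyme, was 10.07, 10.08 and 10.13 in experiment 9, in the order vesicle, cell and medium. In experiment 1 it was 10.07 and 10.04 in vesicle hearts, 10.04 and 10.17 in cell hearts and 10.09 in the medium heart, so the experiments overlapped (0.0061 ± 0.036). Ldhb was 11.40 to 11.54 in experiment 9 against 11.20 to 11.40 in experiment 1 (0.13 ± 0.031, limma adjusted p = 0.295), overlapping by 1 array of each. Pdha1 was 11.21 to 11.24 in experiment 9 against 11.11 to 11.18 in experiment 1 (0.077 ± 0.017, limma adjusted p = 0.281), without overlap. Fbp2, below background, was 6.76 to 7.18 in experiment 9 against 6.30 to 6.71 in experiment 1, without overlap. All injected arrays of experiment 9 lay above all of experiment 1 in 4.18% of all genes and below them, as for Pgam1 and Pfkl, in 2.74%.

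Pairs of muscle and general isoenzymes leaned one way between the experiments, a pattern described here without a test. In 6 pairs with both genes above background, the log2 value of the muscle form minus that of the general form was taken on each array and the pair's mean over 9 arrays subtracted. In the lactate dehydrogenase pair Ldhb, the heart form, takes the place of the muscle form, and Ldha, the form of skeletal muscle and many other tissues, that of the general form. A shift common to a whole array cancels in this measure. All 6 pairs leaned to the muscle or heart form in experiment 9 against experiment 1, by 0.15 to 0.39 with a median of 0.18. Single differences were 0.39 ± 0.12 (SE) for Pgam2 over Pgam1, 0.25 ± 0.074 for Slc2a4 over Slc2a1, 0.19 ± 0.085 for Pfkm over Pfkp, 0.17 ± 0.039 for Pfkm over Pfkl, 0.17 ± 0.064 for Hk2 over Hk1 and 0.15 ± 0.046 for Ldhb over Ldha. The lean of Pgam2 over Pgam1 came from Pgam1 (−0.39 ± 0.13), while Pgam2 stood at 0.0061 ± 0.036. The Pgam1 signal cannot be told from that of its copies with certainty. Pfkm enters 2 pairs, and no test was made over pairs, which share their arrays.

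For glucose uptake both partners took part. Slc2a4 was 9.55, 9.42 and 9.56 in the vesicle, cell and medium hearts of experiment 9. In experiment 1 it was 9.41 and 9.32 in vesicle hearts, 9.29 and 9.49 in cell hearts and 9.41 in the medium heart, a difference of 0.12 ± 0.060. Slc2a1 was 8.19, 8.14 and 8.07 in experiment 9, against 8.19 and 8.29 in vesicle hearts, 8.14 and 8.38 in cell hearts and 8.33 in the medium heart of experiment 1, a difference of −0.13 ± 0.070. Each gene overlapped between the experiments, and neither passed limma (adjusted p = 0.454 and 0.47). For phosphofructokinase Pfkl carried more of the shift (−0.12 ± 0.053) than Pfkm (0.053 ± 0.035), and for hexokinase Hk1 stood at −0.098 ± 0.051 and Hk2 at 0.071 ± 0.038.

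The mean over the 6 pairs was 0.096, 0.16 and 0.19 on vesicle array 1, cell array 1 and medium array 1, and −0.058 on the sham array of the same experiment. In experiment 1 it was −0.016 and −0.087 on the vesicle arrays, −0.036 and −0.17 on the cell arrays and −0.071 on the medium array. The 3 injected hearts of experiment 9 therefore lay above the other 6 arrays, and the sham heart, although part of experiment 9, lay within the range of experiment 1. With Aldoa over Aldoc and Slc16a1 over Slc16a3 added, 7 of 8 pairs leaned to their first gene, with a median of 0.18. The second gene of both added pairs was below background, and these pairs do not follow the division into muscle and general forms.

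The mean of the heart muscle markers was higher on the injected arrays of experiment 9 than on the other arrays. Singly, Myh6, Myl2 and Pln did not overlap between the injected hearts of the experiments, while Tnnt2, Tnni3 and Ryr2 did. Means of fibroblast, macrophage and endothelial markers overlapped between the experiments, those of macrophage markers only at 6.41. Heart muscle markers averaged 11.72 to 11.75 on the injected arrays of experiment 9 and 11.65 on the sham array, against 11.60 to 11.66 in experiment 1. Fibroblast markers (3 of 4 measured, all above background) averaged 9.44 to 9.75 on the injected arrays of experiment 9 and 9.82 on the sham array, against 9.65 to 9.88 in experiment 1. Macrophage markers (4 measured, 1 above background) averaged 6.26 to 6.41 on the injected arrays of experiment 9 and 6.43 on the sham array, against 6.41 to 6.68 in experiment 1. Endothelial markers (4 measured, all above background) averaged 9.21 to 9.33 on the injected arrays of experiment 9, against 9.11 to 9.30 in experiment 1. On the sham array they averaged 9.04. The part of all these markers in the isoenzyme result was not tested. In whole hearts, fewer cells of a type and less RNA per cell cannot be told apart.

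**Figure D4:**
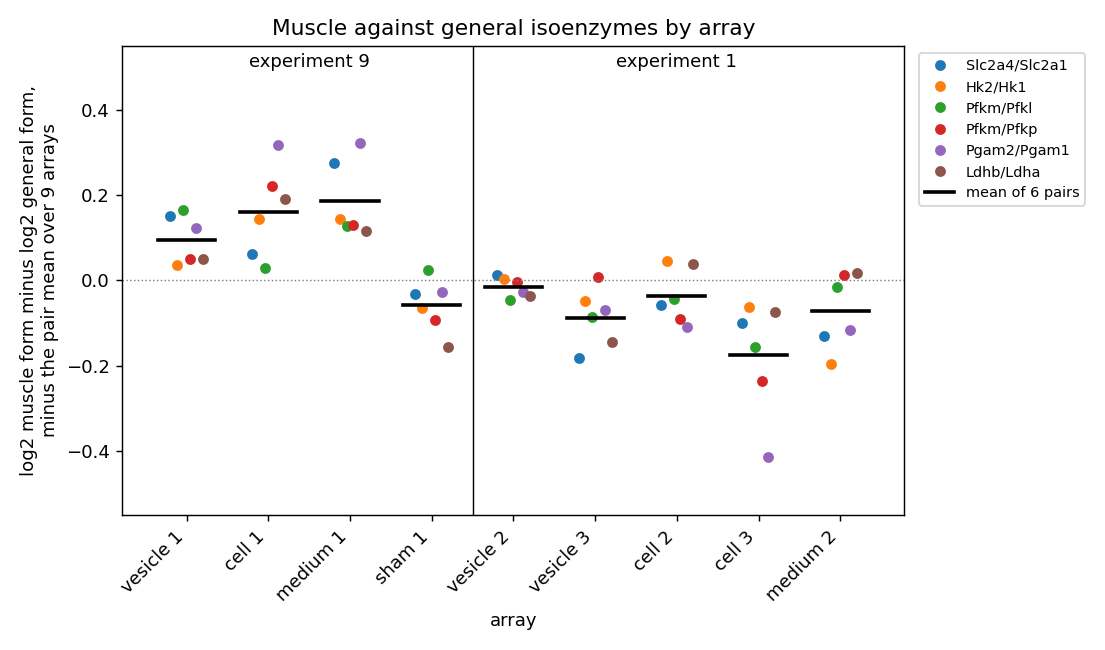
Log2 muscle form minus log2 general form for 6 isoenzyme pairs (points; Ldhb stands as muscle form over Ldha) on each array, minus the pair's mean over 9 arrays, with black bars for the mean of the 6 pairs. The bars of the 3 injected arrays of experiment 9 stand at 0.096 to 0.19 and those of the other 6 arrays at −0.17 to −0.016.

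Between treatments no direction was shared by all 6 pairs, and the medians were smaller in size than between the experiments. Most pairs leaned to the general form against medium after either treatment, in comparisons that share the medium arrays. For vesicles over medium 5 of 6 pairs leaned to the general form, with a median of −0.025, and for cells over medium 4 of 6, with a median of −0.068. For vesicles over cells 4 of 6 leaned to the muscle form, with a median of 0.039. Most single differences were smaller than their standard error: Pgam2 over Pgam1 stood at −0.030 ± 0.15 after vesicles and −0.11 ± 0.15 after cells. Pfkm over Pfkl after cells, at −0.085 ± 0.049, had the same sign in both experiments (−0.10 and −0.084).

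Whether treatment differences themselves changed with the experiment was tested as an interaction. Limma called 0 of the 29 genes for vesicles and 0 for cells (0% of all genes for each), 3 genes having an unadjusted p under 0.05 for each treatment: Pfkfb3 and Aldoc, both below background, and Pdha1. At that threshold stood 18.1% of all genes for vesicles and 18.8% for cells, above the share among the 29. The lowest limma adjusted p among the 29 was 0.0905 for vesicles and 0.0884 for cells, both for Pfkfb3. For Pdha1 the difference after vesicles was −0.021 in experiment 9 and 0.041 in experiment 1 (adjusted p = 0.181). That fit leaves 2 residual degrees of freedom.

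Medium was set against sham within experiment 9, 1 array each, so these values have no replicate check and no test. Of the 29 genes 18 were higher in the medium heart, with a median of 0.020, beside 40.9% higher, 38.8% lower and a median of 0 over all genes. Past 1.2-fold, 3 genes were higher (beside 1.76% of all genes) and 1 was lower (beside 2.28%). Ldhb was 11.45 in the medium heart against 11.19 in the sham heart, Slc16a1 was 9.93 against 9.63, and Fbp2, below background in both, was 7.18 against 6.34. Pgam1 was 9.01 in the medium heart against 9.27 in the sham heart.

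Several muscle forms were higher in the medium heart than in the sham heart: Slc2a4 was 9.56 against 9.33, Pfkm 10.95 against 10.79, Eno3 11.58 against 11.37, Pygm 11.75 against 11.60 and Hk2 9.80 against 9.68. The general forms Slc2a1, Hk1 and Pfkp were 8.07, 8.44 and 7.88 in the medium heart against 8.15, 8.53 and 7.94 in the sham heart, while Pfkl was 8.51 against 8.46. All 6 pairs leaned to the muscle or heart form in the medium heart, by 0.10 for Pfkm over Pfkl to 0.35 for Pgam2 over Pgam1. In the vesicle heart of this experiment the same pairs exceeded sham by 0.10 to 0.21, and in the cell heart by 0.0047 to 0.35. These comparisons share 1 sham array.

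Further genes of the pathway were taken from 4 lists. None of their members passed limma in any comparison between injected groups or experiments, and the counts at an unadjusted p under 0.05 follow. Of 18 genes for pyruvate and lactate fate, 15 were lower after vesicles (median −0.036), beside 60.3% of all genes, and 1 of them passed that threshold, beside 4.53%: Pdp2, a phosphatase that reactivates pyruvate dehydrogenase, was 6.87, 6.74 and 6.64 in vesicle hearts against 6.98 and 6.88 in medium hearts, under the background. Me1, the cytosolic malic enzyme that turns malate into pyruvate, was the 1 gene higher at that threshold, beside 1.91% of all genes. It was 9.52, 9.35 and 9.38 in vesicle hearts against 9.38 and 9.16 in medium hearts, with overlap (0.18 ± 0.024, limma adjusted p = 0.591). After cells Me1, again the 1 gene higher at that threshold (beside 1.68% of all genes), was 9.55, 9.35 and 9.32 (0.17 ± 0.024, limma adjusted p = 0.682). The sham heart was at 9.51 for Me1, within the range of the treated hearts.

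Among 18 fuel regulators, 11 were higher after vesicles and 15 after cells, beside 38.6% and 43.2% of all genes. Each time 2 of them, Txnip and Mef2a, were higher at an unadjusted p under 0.05, beside 1.91% and 1.68% of all genes. Txnip encodes a glucose-induced protein that restrains glucose uptake. It was 11.28, 11.60 and 11.44 in vesicle hearts, 11.20, 11.27 and 11.35 in cell hearts and 11.03 and 11.05 in medium hearts. Every treated heart lay above both medium hearts, as in 3.72% of all genes after vesicles and 3.2% after cells. The differences were 0.38 ± 0.072 after vesicles and 0.21 ± 0.072 after cells (limma adjusted p = 0.675 and 0.682), and the sham heart was at 11.27, within the range of the treated hearts. Mef2a, a muscle transcription factor that acts on Slc2a4, stood at 0.17 ± 0.033 after vesicles and 0.13 ± 0.033 after cells. It was 9.60, 9.53 and 9.50 in vesicle hearts, 9.60, 9.50 and 9.43 in cell hearts and 9.48 and 9.32 in medium hearts. The sham heart was at 9.50 for Mef2a, within the range of the treated hearts.

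Of 23 further glycogen genes, 14 were higher after vesicles and 17 after cells, beside 38.6% and 43.2% of all genes, with medians of 0.0058 and 0.030. At an unadjusted p under 0.05 stood 0 and 1 of them, the 1 higher, beside 1.68% of all genes. Of 19 further genes of glycolysis and the pentose phosphate pathway, 15 were lower after vesicles and 14 after cells, beside 60.3% and 55.7% of all genes, with medians of −0.041 and −0.038. At that threshold 2 and 1 of them were lower, beside 4.53% and 5.05% of all genes. Between experiments 9 and 1, 13 of the 18 pyruvate and lactate genes were higher in experiment 9 (median 0.072), beside 40.7% of all genes, 7 of them at an unadjusted p under 0.05, beside 6.2% of all genes. Dld, a part of the pyruvate dehydrogenase complex, stood at 0.15 ± 0.037 (limma adjusted p = 0.309), and Mpc1, a subunit of the mitochondrial pyruvate carrier, at 0.18 ± 0.041 (limma adjusted p = 0.295). Dld was 11.10 to 11.18 in the injected hearts of experiment 9 against 10.93 to 11.04 in experiment 1, and Mpc1 was 7.64 to 7.75 against 7.45 to 7.56. The sham heart, with 11.04 and 7.56, lay at the upper end of experiment 1 for both.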

How the data were processed

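RNA of frozen whole hearts was hybridised to Affymetrix arrays after whole-transcript labelling, as the labels' protocols state. The authors deposited 1 normalized log2 value per probe set and array; the log base was read from the values (1.55 to 14.2). The submitters' processing notes name Partek only, and background correction, normalization and build were not stated. Of 80202 probe sets, 30604 carried 1 symbol. Symbols were updated through Entrez numbers with RefSeq (GRCm38.p6, 22818 matched), and the probe set with the highest mean was kept, leaving 30142 genes. In 61.1% of genes, and 7 of the 29 described, 3 or more arrays share a value, which narrows the spread. The number of arrays limits the precision.

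Differences were fitted with lmFit and eBayes (limma 3.58.1, R 4.3.3) on 8 arrays, with treatment means and a fixed experiment block (4 residual and 1.18 prior degrees of freedom), two-sided, with Benjamini-Hochberg adjustment over all genes. Values after ± are standard errors. Sham was compared by value only. The fit was tested on simulated data: for vesicles against control, among 30142 genes, it found 46% of 50 genes changed by 0.32 on the log2 scale and 62% of 50 changed by 0.58. It found 100% of 50 changed by 1 and 76% of 50 changed by −1, with 16 false calls among 29942 unchanged genes. The simulated noise was normal with the fitted spread of each gene, which shared values narrow. These percentages therefore need not hold for the genes described. Genes and lists were chosen with earlier results of these data known. All genes of the main list could be named, and from each further list up to 4 with the lowest unadjusted p in a comparison. The restriction to pairs above background and the genes shown for cell array 3 were picked after their values had been seen.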

Additional observations from a re-analysis of the deposited data

How the results depend on the processing

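No member was called by limma with arrays centred on their median, after quantile normalization, without dim genes, with probe sets averaged, without the experiment block, with sham among the controls, with a variance trend or by least squares. Leaving out each array in turn gave 0 to 1 members called for vesicles against control and for cells against control, the 1 being Pfkfb3 without medium array 1, where 2.73% and 2.99% of all genes were called, and 0 for the other comparisons. Over these omissions the median member difference ran from −0.053 to −0.0088 for vesicles against control, from −0.029 to 0.041 for cells against control, from −0.066 to 0.0026 for vesicles against cells and from −0.017 to 0.024 between experiments. The median turned on leaving out cell array 3 in both comparisons of cells, and between experiments without vesicle arrays 1 (−0.017) or 3 (−0.00090), either medium array (−0.0065) or cell array 2 (−0.015). It was −0.047 between experiments and −0.0060 for cells against control after quantile normalization, and 0.0025 for vesicles against control with centred arrays. The pair medians that follow are of first minus second gene over 8 pairs, with Aldoa over Aldoc and Slc16a1 over Slc16a3 included. The median was 0.16 to 0.24 between experiments over the omissions. It was −0.060 to 0.013 for vesicles against control, −0.048 to 0.0071 for cells against control and −0.033 to 0.022 for vesicles against cells. With sham pooled with the controls it turned to 0.023 for vesicles and 0.018 for cells. Without vesicle array 3 and cell array 3 together, an alternative chosen after seeing the data, the median member difference was −0.029 for cells against control and 0.012 for vesicles against cells, and the pair median −0.050 for vesicles against cells. The cause of these changes was not tested, except that omissions leave fewer arrays. Every title carries the same replicate number, which gives no pairing of arrays. Titles also carry a VTS number of unstated meaning. VTS3 covers the arrays of experiment 9. VTS1 holds vesicle array 2, cell array 2 and medium array 2, and VTS2 holds vesicle array 3 and cell array 3 but no medium array. With the VTS number as the block in place of the experiment (3 residual degrees of freedom, added after seeing the data), arrays were compared within these sets. Limma called 0 members in each treatment comparison. The median member difference was then −0.041 for vesicles against control, −0.0043 for cells against control and −0.038 for vesicles against cells. Values at or under the negative controls limit what can be said of Aldoc, Pfkfb3, Slc16a3 and Fbp2.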
